A study of Mus musculus with 2 samples.

Results

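The 70 genes described here were the replication-dependent histone genes, taken from the gene models of the mouse genome build mm9 as every gene whose symbol starts with Hist1h, Hist2h, Hist3h or Hist4h, out of 37310 annotated genes. They comprised 67 protein-coding genes and 3 pseudogenes. By product, 6 were H1, 20 H2A, 19 H2B, 12 H3 and 13 H4 genes. By symbol, 56 were Hist1 genes on chromosome 13, 10 were Hist2 genes on chromosome 3, and 3 were Hist3 genes on chromosome 11. Hist4h4 lay alone on chromosome 6. Among the Hist1 genes, Hist1h2al at chr13:51298057-51298434 lay far from the others, outside their cluster. The data were 2 RNA-Seq libraries of whole brains from F1 embryos at E17.5, sequenced as single-end reads of 36 bases in a study of imprinted expression. The BxC library came from an embryo with a C57BL/6J mother and a CastEi/J father, and the CxB library from the reciprocal cross, a CastEi/J mother and a C57BL/6J father. Neither embryo carried an engineered allele or received an agent, each library was made from 1 brain without pooling, and the methods give the CxB brain as male. With 1 library per cross no difference could be tested, so every interval below covers counting error only and says nothing of variation between embryos.

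Replication-dependent histone genes supply the linker histone H1 and the core histones H2A, H2B, H3 and H4 that package newly copied DNA, and their transcripts rise in S phase. Their mRNAs differ from all other metazoan mRNAs in carrying no poly(A) tail. They end instead just after a short hairpin, the stem-loop, which is bound by the stem-loop binding protein Slbp and is cut downstream with the help of the U7 snRNP. Some of these genes can also give a polyadenylated mRNA, by reading past the stem-loop to an ordinary poly(A) signal, and such forms are known from differentiated cells. The libraries were made from RNA purified on oligo(dT) beads, which retain poly(A) tails. In bulk tissue, fewer cells of a type and less RNA per cell cannot be told apart.

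The stem-loop was sought in the 200 bases after each stop codon, on the sense strand, as the 16 bases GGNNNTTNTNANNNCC with 3 pairing bases on each arm. It was found in 63 of the 67 members with an annotated stop codon and in 6 of 21863 other protein-coding genes, or 0.0274%, 1 of them the replication-independent histone gene H2afx. The stem-loop began 21 to 58 bases after the stop codon, with a median of 30. The 4 coding members with no match were Hist1h2al, Hist1h2an, Hist2h2bb and Hist2h2be, and the 3 pseudogenes without an annotated stop codon were Hist1h2aj, Hist2h3c2 and Hist3h2bb-ps. The sequences of 6 members are shown because the reads before and after this point carry the main result. The hairpin is in capitals and 5 bases of flank on each side are in lower case.
Hist3h2a: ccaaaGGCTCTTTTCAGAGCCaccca
Hist3h2ba: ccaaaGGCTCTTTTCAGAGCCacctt
Hist1h1c: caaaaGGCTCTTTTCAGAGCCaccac
Hist1h1e: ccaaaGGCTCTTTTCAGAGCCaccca
Hist1h4d: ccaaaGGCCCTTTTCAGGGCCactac
Hist1h4b: caaaaGGTCCTTTTCAGGACCactca
On mm9 these hairpins occupied chr11:58768674-58768689 for Hist3h2a, chr11:58762851-58762866 for Hist3h2ba, chr13:23831381-23831396 for Hist1h1c, chr13:23713651-23713666 for Hist1h1e, chr13:23673819-23673834 for Hist1h4d and chr13:23849235-23849250 for Hist1h4b. All are given 5′ to 3′ on the strand of the gene, which was plus for each except Hist1h1e. The first 4 shared 1 hairpin, which 39 members carried, spread over H1, H2A, H2B and H3 genes but absent from H4 genes. The hairpin of Hist1h4d was carried by 8 members and that of Hist1h4b by 2, all of them H4 genes. In all, 8 different hairpins occurred.

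The counts of the BxC library summed to 128944754 aligned reads and those of the CxB library to 109719746. These sums exceed the mean number of reads per library that the methods state. The meaning of the deposited count was inferred from its values, and all counts, levels and intervals below rest on that reading. Markers of the labelled tissue were present at 59.0 to 974 RPKM (reads on either strand per kb of exon, scaled to a library of 1000000 reads) in BxC for 3 neuronal genes and at 3.44 to 70.5 for 4 genes of radial glia and progenitors. The cycling-cell markers Mki67 and Top2a stood at 7.01 and 3.21 in BxC and at 6.08 and 3.11 in CxB. Markers of other cells were also found. Transthyretin of the choroid plexus stood at 253 and 281, the 2 endothelial genes at 3.40 to 18.2, the 2 microglial genes at 0.456 to 2.35, and the 4 genes of the red cell lineage at 0 to 7.75, with Hbb-y at 2 reads in BxC and 0 in CxB. The germ cell genes Ddx4 and Dazl lay between 0.0998 and 0.307. The methods describe libraries that retain strand. Sense was taken here as the strand, relative to the gene, that held more reads over all protein-coding genes in these libraries. A majority share over those genes together therefore follows from that choice. By it, the sense strand held a median of only 56.1% of the reads of a protein-coding gene in BxC and 56.8% in CxB, over the genes with at least 1000 reads. For the members the share was 53.5% and 53.3%. Sense reads and reads of the other strand are therefore both given.

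Transcripts of replication-dependent histone genes were scarce in both libraries. All members together took 14042 reads in BxC and 10975 in CxB, counting exon overlap on either strand, which is 109 reads per 1000000 library reads (RPM) in BxC. The median member had 20 reads in BxC and 18 in CxB, against 658 and 555 for other protein-coding genes. Per length and depth, the median member stood at 0.247 and 0.251 RPKM, and the median of other protein-coding genes at 1.59 in both libraries. Counting only reads wholly within an exon at unique positions, per kb of such positions, the median of the 64 members that have any was 0.519 RPKM in BxC and 0.565 in CxB, and other genes were not corrected in this way. By the sense strand alone, 13 of 70 members had no exon read in either library, or 9 on either strand, and the share of other protein-coding genes with no sense read in either was 16.7%. The difference lay in the middle of the range, since only 8 members had at least 100 sense reads in each library, whereas 58.8% of other protein-coding genes did. Between those limits, 32 members had 1 to 19 sense reads in BxC and 17 had 20 to 99. The minimum of 100 reads was not scaled for exon length or for unique positions.

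Genes that share the work of these histones were better covered. All 16 S-phase genes of the comparison list, most of which copy DNA or make its building blocks, had at least 100 sense reads in each library. Their median was 4.38 RPKM in BxC and 4.65 in CxB, with a range of 0.606 to 19.3 in BxC. All 11 genes of histone mRNA transcription, 3′ end formation and decay passed the same minimum, with medians of 6.09 and 6.97, and Slbp itself stood at 2.14 and 2.20. The 11 replication-independent histone genes, whose mRNAs are polyadenylated and made outside S phase as well, had medians of 40.1 and 36.1. The highest of them was H1f0, a linker histone of resting cells, at 341 and 281, and the lowest was Cenpa, the centromeric H3, at 2.34 and 2.36. Per kb of all exon bases, Hist3h2a, Hist3h2ba, Hist1h4b and Hist1h4d stood above the median of the S-phase genes in both libraries. Per kb of unique positions, 5 members did, namely Hist3h2a, Hist3h2ba, Hist1h4d, Hist1h4j and Hist1h4k, the last with 139 reads in BxC and 152 in CxB on only 49 unique positions. Hist1h4b stood at 1.29 and 0.868 RPKM on that scale.

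**Figure D1:**
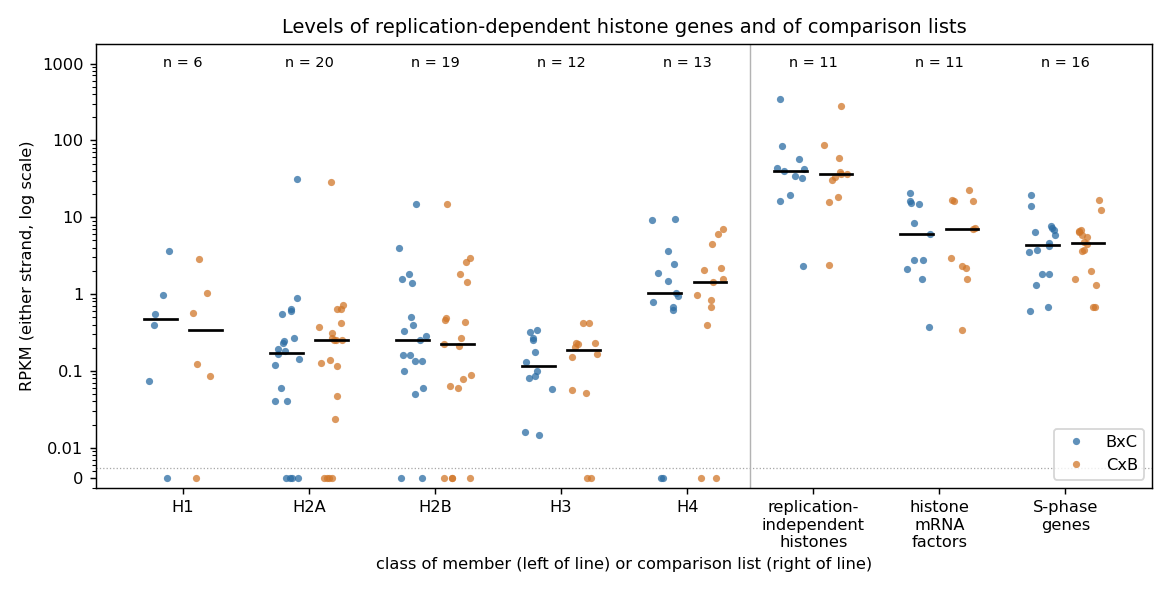
RPKM on either strand (log scale, zeros drawn at the bottom) for each member by class and for 3 comparison lists; blue points are BxC, orange points CxB, and black bars medians. The median of the H4 genes, 1.02 in BxC and 1.42 in CxB, was the highest of the 5 classes in both libraries, and that of the replication-independent histone genes, 40.1 and 36.1, was the highest of the 3 lists.

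The reads were divided very unevenly. The 5 members with the most sense reads held 79.3% of the 7515 sense reads of all members in BxC (95% Clopper-Pearson interval 78.3 to 80.2) and 78.8% of 5846 in CxB (77.7 to 79.8). They were Hist3h2a, Hist3h2ba, Hist1h4b, Hist1h1c and Hist2h2be in both libraries. The 3 Hist3 genes held 65.8% of the reads on either strand in BxC and 66.3% in CxB. The 56 Hist1 genes held 27.0% and 25.6%, and the 10 Hist2 genes 6.47% and 7.44%. By class, H2A genes held 59.8% and 60.1%, H2B genes 18.2% and 19.0%, H4 genes 13.2% and 12.2%, H1 genes 6.79% and 6.01%, and H3 genes 1.94% and 2.65%.

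Among the H1 genes, which bind the linker DNA between nucleosomes, Hist1h1c was the highest, with 413 sense reads and 318 on the other strand in BxC and 274 and 209 in CxB, or 2.05 and 1.60 sense RPKM. It lies at chr13:23830676-23832235 as a single exon of 1560 bases. Hist1h1e had 62 sense reads in BxC and 53 in CxB, Hist1h1b 27 and 23, Hist1h1d 20 and 19, and Hist1h1a 19 and 5. Hist1h1t, the H1 of spermatocytes, had no read on either strand in either library although each of its exon positions is unique at 36 bases, and a count of 0 allows up to 3 reads, or 0.0233 RPM in BxC and 0.0273 in CxB.

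Among the H2A genes, Hist3h2a was alone in its depth. It lies at chr11:58768187-58770176 as a single exon of 1990 bases and had 3940 sense reads in BxC and 3110 in CxB, with 4095 and 3142 on the other strand. This is 15.4 and 14.2 sense RPKM, the highest level of any member in both libraries. The annotation places 708 bases of an exon of Trim17 on the same strand over it, but no spliced read joined the exon of Hist3h2a to another in either library, and the other exons of Trim17 had 336 and 278 reads over 3028 bases. The next H2A genes per length, Hist1h2ak and Hist1h2af, had 33 and 26 sense reads in BxC and 26 and 7 in CxB. Hist1h2aa, a gene of testis, had 3 and 2.

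Among the H2B genes, Hist3h2ba at chr11:58762413-58763032 had 768 sense reads in BxC and 665 in CxB over 620 exon bases, with 418 and 338 on the other strand, or 9.61 and 9.78 sense RPKM. It stood second among all members in both libraries. Hist2h2be at chr3:96025044-96027661 had 339 and 279 sense reads over 2618 bases. Hist1h2bp had 257 and 138, and Hist1h2bc had 130 and 120. Hist1h2ba, the testis H2B, had 3 sense reads in BxC and 0 in CxB.

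The H3 genes were low throughout. The highest per length was Hist2h3c1 with 79 sense reads in BxC and 84 in CxB over 2955 bases, 562 of which it shares on the same strand with Hist2h2aa1. The shared bases held no read in either library. No H3 member reached 100 sense reads in either library.

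The H4 genes were spread more evenly. Hist1h4b had 497 sense reads in BxC and 276 in CxB and Hist1h4d had 235 and 148, or 4.64 and 3.43 sense RPKM for the latter. Hist4h4 had 73 and 38, Hist1h4f 33 and 35, and Hist1h4k 24 and 28. Strand mattered for Hist1h4k, which had 120 reads in BxC and 127 in CxB on the other strand. In the H2B class, Hist1h2bn had no sense read but 76 and 123 reads on the other strand, and among H3 genes Hist1h3c had none but 22 and 16. In Hist1h2bn, 2 of these reads in BxC and 0 in CxB lay wholly within the exon at unique positions, and the others reached over its edge. In Hist1h3c all of them lay within the exon, but none wholly between the start of the coding sequence and the stem-loop.

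The members are near copies of one another, and the methods kept uniquely aligned reads. A copy without unique sequence could therefore gain no read wholly within its exon by that rule. Across all members the median share of exon positions whose 36 bases occur a single time in mm9 was 46.0%, from 32.0% for H2A genes to 95.4% for H1 genes. Of the 9 members with no read on either strand, 5 had no unique position at all, namely Hist1h2ao, Hist1h2ap, Hist1h2bq, Hist1h2br and Hist2h2aa1. The other 4 were Hist1h4m, with 9.81% of its positions unique, Hist1h4n with 6.84%, Hist1h2ad with 32.0%, and Hist1h1t. A sixth member with no unique position, Hist2h2aa2, had 3 reads in BxC and 8 in CxB. All of these lay on the other strand at unique positions and reached over the edge of its exon. The remaining members with no sense read were Hist1h2bn, Hist1h3c, Hist1h3h and Hist2h2aa2. The 32 members with at least 50% of positions unique held 12755 of the 14042 reads in BxC and 9875 of the 10975 in CxB.

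**Figure D2:**
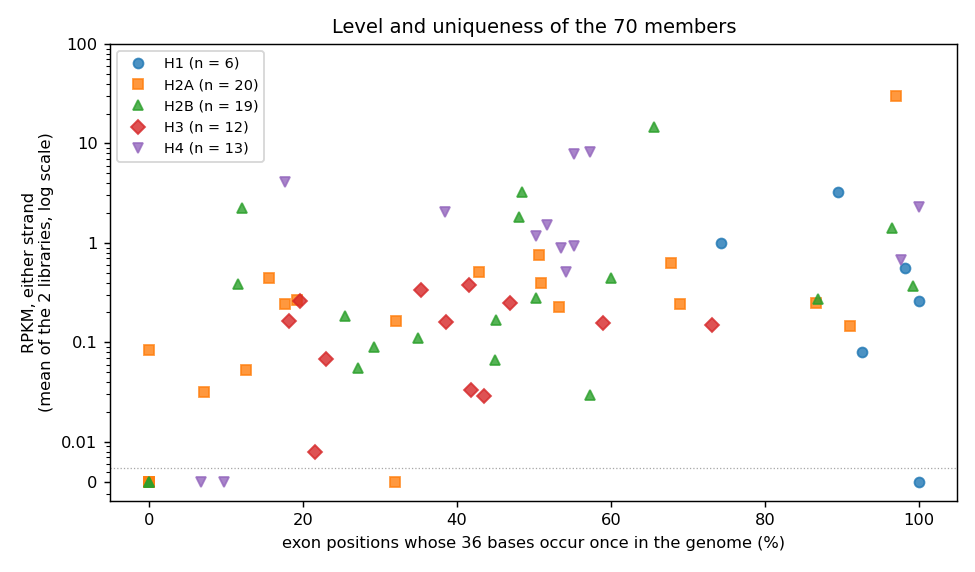
Level of each of the 70 members (mean of the 2 libraries, RPKM on either strand, log scale, zeros drawn at the bottom) against the percentage of its exon positions that are unique at 36 bases; symbols mark the class, and 5 members without reads overlie each other at 0%. The 2 highest points are Hist3h2a and, at 65.6%, Hist3h2ba, and the point at 0 reads and 100% is Hist1h1t.

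A departure from uniqueness touched mainly Hist1h4b and Hist1h2bp. Some reads were listed at positions whose 36 bases occur several times in mm9, 884 of 14042 member reads in BxC, or 6.30% (5.90 to 6.71), and 482 of 10975 in CxB, or 4.39% (4.02 to 4.79). Of these, 862 and 472 lay in Hist1h4b and Hist1h2bp. In Hist1h4b, 505 of 548 unspliced reads in BxC and 268 of 292 in CxB lay at positions with 6 to 11 copies in the genome, within a stretch of 65 start positions. In Hist1h2bp, 357 of 358 and 204 of 204 did, with 7 to 17 copies. The values of both genes can therefore belong to other H4 or H2B genes. Hist1h4b, annotated as a single exon, also had 59 spliced sense reads in BxC and 30 in CxB. In Hist1h4b, 369 of the 505 reads in BxC lay wholly within the 50 bases next to an exon edge of 4930558J22Rik, a noncoding gene on the opposite strand. The methods describe alignment to splice-junction sequences of that flank length. Whether that step placed these reads was not tested.

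The next comparison asked whether the covered members were seen as tail-less mRNAs ending at the stem-loop or as longer forms. Reads were counted between the start of the coding sequence and 5 bases after the stem-loop, called the body, and in the 200 bases that follow, and both counts were divided by the number of unique positions. The ratio of the second density to the first is near 1 for a transcript that runs through and near 0 for one that ends there. Sense reads were used first, with at least 100 in the body and the window ended at the next same-strand exon of another gene. Only Hist3h2ba and Hist1h4d could then be measured, and Hist3h2ba passed a ratio of 0.1 in both libraries. For scale, 13.9% of 6347 other protein-coding genes passed 0.1 in both libraries past their annotated 3′ end. This is a different kind of end, and it serves only as the level of reads beyond an annotated end.

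Hist3h2ba had 347 sense reads in the body and 361 past the stem-loop in BxC, and 325 and 296 in CxB. The density ratio was 1.22 in BxC (1.05 to 1.42) and 1.07 in CxB (0.912 to 1.26), and on either strand it was 1.10 (0.973 to 1.25) and 0.966 (0.843 to 1.11). In addition, 27 reads in BxC and 24 in CxB lay across the end point with at least 10 bases on each side. Per position these crossing reads stood at 0.575 (0.375 to 0.846) and 0.569 (0.361 to 0.858) of the body. The ratio by sense reads was 0.416 in BxC and 0.476 in CxB when each start position was counted a single time, and 0.493 and 0.420 with a window of 500 bases. The first AATAAA after its stem-loop began at base 143, and the annotated end of the gene lay 18 bases after that signal. The signal is shown in capitals with 12 bases on each side, at chr11:58763009-58763014 on the plus strand of mm9.
Hist3h2ba: cataatggtattAATAAAtttggttcaatt
From the stem-loop to 30 bases after the signal there were 502 reads on either strand in BxC and 394 in CxB, and in the 200 bases beyond there were 51 and 27. The density beyond was 0.0850 of that before it in BxC and 0.0573 in CxB. AATAAA occurred within 500 bases of the stem-loop in 9 of 63 members, or 14.3%, and in 38.6% of windows of that length taken from 50 bases after the stop codon of other protein-coding genes. On either strand Hist1h4a, Hist1h2be and Hist4h4, with a signal at bases 80, 184 and 342, had 0 reads in the window past the stem-loop. Their body reads in BxC were 65, 59 and 104. Hist1h2ae, Hist1h4j and Hist2h3b had 1, 3 and 5 past it in BxC and 2, 0 and 2 in CxB. In Hist3h2a the first AATAAA began at base 1610, past the annotated end at base 1487. Whether the signal bears on these reads was not tested.

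Hist1h4d was lower past its stem-loop. It had 231 sense reads in the body and 2 past the stem-loop in BxC, and 148 and 1 in CxB, which gives ratios of 0.00950 (0.00114 to 0.0347) and 0.00741 (0.000186 to 0.0419). By distinct start positions they were 0.0609 and 0.0392, and with the window starting 20 bases after the stem-loop 0.0332 and 0.0148. On either strand the ratio was 0.102 (0.0726 to 0.140) and 0.0442 (0.0226 to 0.0783), and no read crossed the end point in either library. Further from the stem-loop more reads were found. In a window of 500 bases there were 52 sense reads against 231 in the body in BxC, a ratio of 0.0876, and 21 against 148 in CxB, a ratio of 0.0552. On either strand the first 400 bases after the stem-loop held 90 reads in BxC and 33 in CxB.

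Hist3h2a was left out of that count because of the exon of Trim17 on the same strand. With the window kept, it had 2373 sense reads in the body and 254 past the stem-loop in BxC, and 1771 and 299 in CxB. The ratios were 0.234 (0.205 to 0.267) in BxC and 0.369 (0.326 to 0.418) in CxB by sense reads, and 0.155 (0.139 to 0.173) and 0.248 (0.224 to 0.274) on either strand. The intervals of the libraries did not overlap on either measure, and with 1 embryo each this cannot be set against variation between embryos. Reads crossing the end point numbered 143 in BxC and 136 in CxB, the most of any member. Per position the crossing reads stood at 0.600 (0.505 to 0.709) of the body in BxC and 0.756 (0.633 to 0.897) in CxB, and their intervals overlapped those of Hist3h2ba in both libraries. On either strand there were 2331 reads in BxC and 1879 in CxB over the first 1000 bases after the stem-loop, and 71 and 68 over the 600 bases beyond. Over the annotated exon, 30.6% of its reads in BxC (29.5 to 31.6) and 31.8% in CxB (30.6 to 33.0) lay past the stem-loop. The strands were also unlike along the body. In the 200 bases furthest upstream, from 500 to 300 bases before the end of the stem-loop, 133 reads in BxC were sense and 2261 were on the other strand, whereas in the last 100 bases 1270 were sense and 72 were not. The same reversal was seen in CxB, with 131 and 1757 upstream and 1006 and 65 in the last 100 bases.

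Hist1h1c had fewer than 100 sense reads in the body, 93 in BxC and 76 in CxB, with 22 and 12 in the window past the stem-loop. On either strand its ratio was 0.822 (0.572 to 1.16) and 0.639 (0.397 to 0.991). Only 2 reads in BxC and 1 in CxB crossed the end point, or 0.371 (0.0446 to 1.36) and 0.248 (0.00623 to 1.41) of the body per position. Its exon runs 839 bases past the stem-loop, and 77.3% of its unspliced reads in BxC (74.0 to 80.3) and 71.8% in CxB (67.6 to 75.8) lay in that stretch. In a separate tally by the upstream end of each read, counted from the last base of the stem-loop, 559 reads in BxC and 344 in CxB lay in the first 800 bases, and 467 and 278 of them between 300 and 600 bases. Its AATAAA began 815 bases after the stem-loop, at chr13:23832211-23832216 on the plus strand, and the annotated end lay 19 bases after it.
Hist1h1c: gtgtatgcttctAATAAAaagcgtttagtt
In the 200 bases from 30 bases past this signal no read was found in either library, against 19 in BxC and 14 in CxB in the 200 bases before that point. In Hist1h1c the larger fall came before the signal, from 188 reads in BxC and 106 in CxB between 500 and 600 bases after the stem-loop to 22 and 16 in the next 200 bases. The other members with such a signal were not measured around it.

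**Figure D3:**
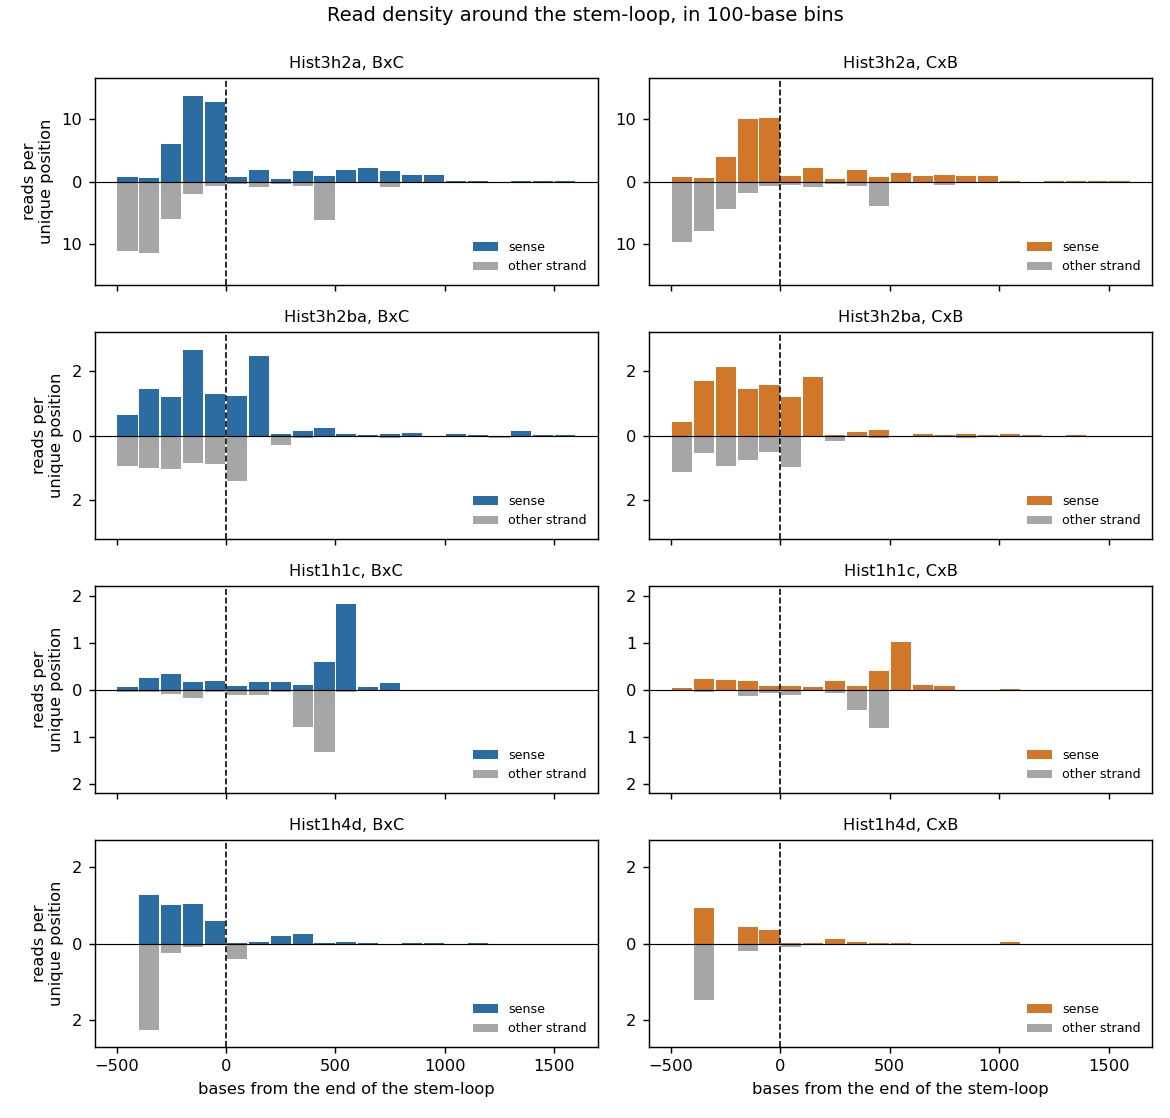
Reads per unique position in 100-base bins from 500 bases before to 1600 bases after the end of the stem-loop (dashed line) for 4 members, with BxC on the left and CxB on the right; bars above the axis are sense reads and bars below it reads of the other strand. Hist3h2ba has 513 reads in BxC and 401 in CxB in the first 200 bases after the stem-loop and 54 and 31 in the next 200, Hist1h1c peaks 300 to 600 bases after it, Hist3h2a is lower past it and continues for about 1000 bases, and Hist1h4d has 90 and 33 reads in the first 400 bases after it.

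Other long forms were annotated as well. Hist1h2bc has a second exon at chr13:23784045-23784357, far downstream of the first at chr13:23776068-23776490, which holds the coding sequence. The stem-loop, at chr13:23776516-23776531, lies past the end of the first exon and before the second. The second exon held 92 sense reads in BxC and 98 in CxB, the first exon held 25 and 15, and 11 and 16 reads on either strand were spliced between them. Of its unspliced reads, 76.9% (69.5 to 83.3) and 84.1% (76.6 to 90.0) lay in the second exon. This share was not corrected for unique positions, of which the body had only 55 and both exons together 320. Hist2h2be, which has no stem-loop match, had 283 of 447 reads past its stop codon in BxC, or 63.3% (58.7 to 67.8), and 66.6% (61.7 to 71.2) in CxB, on 2192 of its 2618 exon bases. In other members whose annotated exon runs past the stem-loop the share of reads past it varied. It was 0 of 358 reads in BxC and 0 of 204 in CxB for Hist1h2bp, 2.35% and 27.5% for Hist1h2be, 8.33% and 11.1% for Hist1h1d, 25.7% and 13.1% for Hist1h2ac, 33.3% and 47.8% for Hist1h3d, and 55.1% and 40.8% for Hist2h4. These shares are not corrected for unique positions, and 357 of the reads of Hist1h2bp in BxC and all 204 in CxB lay at repeated positions. No share is given for Hist2h3c1, which has 0 unique positions between the start of its coding sequence and the stem-loop. These genes were chosen for this account after their values were seen.

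The other 60 members with a stem-loop were read together, with the window ended at the next annotated exon on either strand. In the 50 of them with unique positions on both sides, 1827 reads on either strand in BxC lay in the body and 113 past the stem-loop, a density ratio of 0.0676 (0.0554 to 0.0817), and 1477 and 81 in CxB, a ratio of 0.0599 (0.0473 to 0.0749). By sense reads alone the ratio was 0.0476 (0.0340 to 0.0651) in BxC and 0.0381 (0.0249 to 0.0559) in CxB. By class the ratio on either strand was 0.0606 and 0.0211 for H4 genes, 0.0282 and 0.0287 for H2B, 0.0398 and 0.145 for H2A, 0.146 and 0.108 for H3 and 0.248 and 0.379 for H1, in BxC and CxB. Single genes weighed on these values. Of the 32 H2A reads past the stem-loop in CxB, 20 were of Hist2h2ac, which had 6 body reads, and 0 of those 20 were sense. Without Hist2h2ac the H2A ratio was 0.0204 (0.00741 to 0.0451) in BxC and 0.0522 (0.0265 to 0.0934) in CxB. Of the 69 H4 reads past the stem-loop in BxC, 42 were of Hist1h4d, and 2 of those were sense. Without Hist1h4d the H4 ratio was 0.0382 (0.0250 to 0.0560) and 0.0120 (0.00518 to 0.0239). Without both genes the ratio over 48 members was 0.0520 and 0.0452. Hist1h3d held 6 of the 12 H3 reads past the stem-loop in BxC and 5 of 9 in CxB, and without it the H3 ratio was 0.0932 (0.0326 to 0.218) and 0.0608 (0.0159 to 0.166). The H2B ratio rested on 7 and 5 reads past the stem-loop and was 0.0133 in BxC without Hist1h2bg, 0.0179 in CxB without Hist1h2bf, and 0.0463 and 0.0443 without Hist1h2be. Of the 46 with a body read in BxC, 27 had none past the stem-loop and 10 had 1 to 3. In CxB it was 25 and 10 of 41. Hist1h1e was the H1 gene behind most of the H1 value, with 94 body reads and 10 past the stem-loop in BxC and 77 and 15 in CxB, ratios of 0.324 (0.151 to 0.623) and 0.594 (0.317 to 1.04), and no read across the end point in either library. Without it the H1 ratio was 0.137 (0.0366 to 0.360) in BxC, and in CxB no read past the stem-loop was left beside 65 body reads. Hist2h4 had 14 past the stem-loop in BxC but 1 in CxB. Hist4h4 and Hist1h4h had none in either library, with 104 and 84 body reads in BxC and 89 and 77 in CxB. Reads across the end point, counted on either strand, were found for both, however. There were 3 in CxB for Hist4h4, or 0.698 (0.141 to 2.11) of its body, and 1 in BxC for Hist1h4h. In CxB, Hist1h4j had 4 crossing reads and Hist2h2ac had 7, again on either strand. In all, 8 members had a crossing read in BxC and 7 in CxB. The setting apart of Hist3h2a, Hist3h2ba and Hist1h1c was made after their values were seen, so the lower ratio of the rest is a description.

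**Figure D4:**
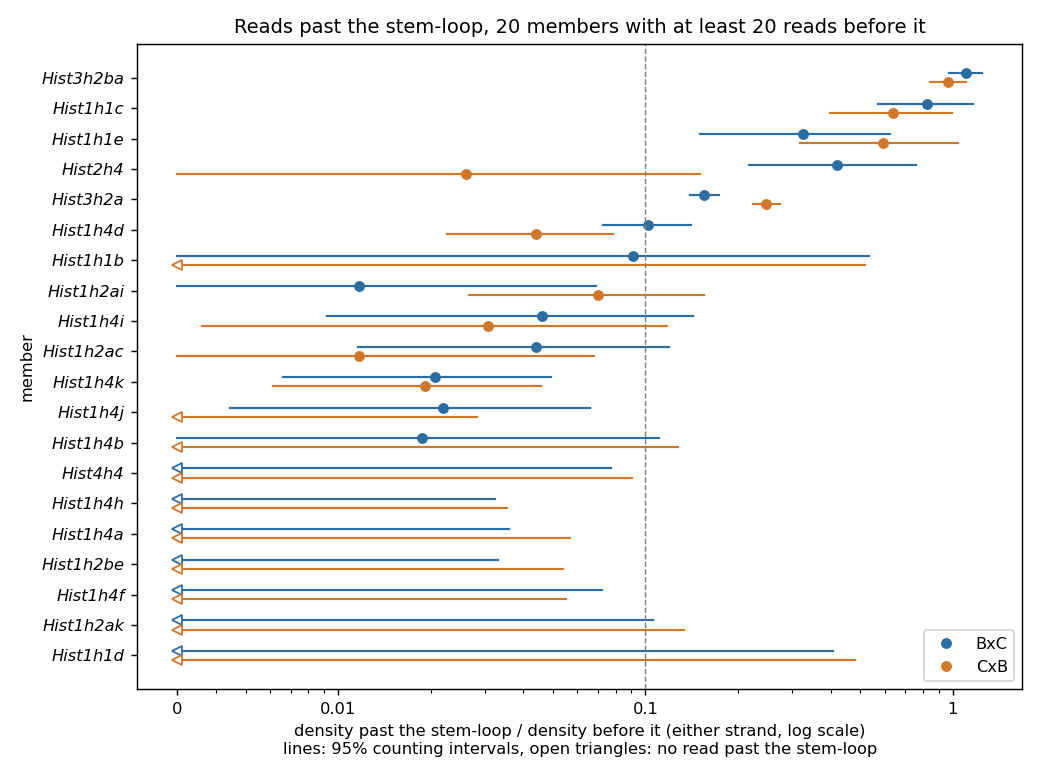
Density of reads past the stem-loop divided by density before it, on either strand (log scale), for the 20 members with at least 20 body reads in each library and enough unique positions; blue is BxC, orange CxB, lines are 95% counting intervals drawn down to the left end of the axis where they reach lower, and open triangles mark no read past the stem-loop. Hist3h2ba, Hist1h1c, Hist1h1e and Hist3h2a lie above 0.1 in both libraries, and 7 members have no read past the stem-loop in either.

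H2afx, the H2A variant that marks DNA breaks, is known for both a stem-loop and a polyadenylated form, and served as a reference from outside the clusters. It had 1724 body reads on either strand in BxC and 666 past the stem-loop, a ratio of 0.829 (0.757 to 0.907), and 1314 and 589 in CxB, a ratio of 0.962 (0.871 to 1.06). The interval of Hist3h2ba overlapped that of H2afx in CxB and lay above it in BxC, while that of Hist3h2a lay below it in both libraries. Per position, the reads crossing the end point of H2afx stood at 0.689 (0.519 to 0.896) and 0.618 (0.437 to 0.849) of its body, intervals that overlapped those of Hist3h2a and Hist3h2ba.

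The study's design compares reciprocal crosses, and the last comparison set CxB beside BxC in RPM. Over the 8 members with at least 100 sense reads in each library, the median log2 ratio of CxB over BxC was -0.23. The ratios of the 8 ran from -0.66 to 0.12. The median over 14208 annotated genes with that coverage was 0.01. None of the 8 was at least 1.5-fold higher in CxB, where 0.380% of the covered annotated genes were, and 2 were at least 1.5-fold lower, where 0.331% were. Among the 3422 covered genes with 100 to 500 sense reads in BxC, the depth of most of these members, 2.05% passed 1.5-fold in either direction. The 2 members were Hist1h2bp, with a log2 ratio of -0.66 (-0.97 to -0.36), and Hist1h4b, with -0.62 (-0.83 to -0.40), the same genes whose reads lay at positions repeated in the genome. Counting only unique positions and spliced reads, neither reached 100 reads in each library, and none of the 6 members left passed 1.5-fold. The highest ratios were those of Hist1h2bc, at 0.12 (-0.25 to 0.49), and Hist3h2ba, at 0.03 (-0.13 to 0.18). Hist3h2a stood at -0.11 (-0.18 to -0.04), Hist1h1c at -0.36 (-0.58 to -0.14), Hist1h4d at -0.43 (-0.74 to -0.13) and Hist2h2be at -0.05 (-0.28 to 0.18). In the comparison lists, 0 of 16 S-phase genes, 0 of 11 factors of histone mRNA and 0 of 11 replication-independent histone genes passed 1.5-fold in either direction, with medians of -0.06, 0.08 and -0.05. Among the markers, Alas2 of the red cell lineage stood at -0.52 and Mki67 at -0.18. Their part in the member ratios was not tested.

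**Figure D5:**
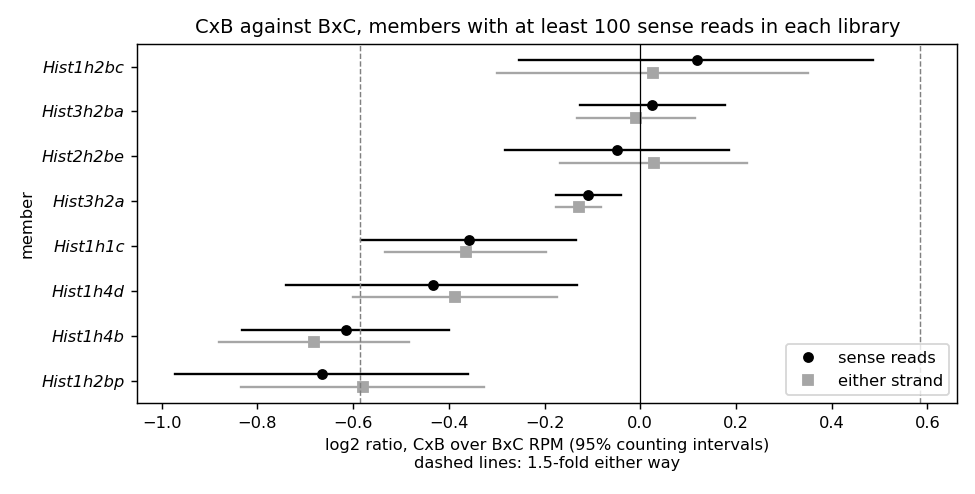
Log2 ratio of CxB over BxC RPM for the 8 members with at least 100 sense reads in each library, with 95% counting intervals; black circles are sense reads, grey squares reads on either strand, and dashed lines mark 1.5-fold either way. Hist1h2bp and Hist1h4b are the lowest, at -0.66 and -0.62 by sense reads, and Hist3h2a lies at -0.11.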

How the data were processed

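Per the labels, polyA+ RNA of 1 E17.5 whole brain per cross was sequenced. Novoalign (its version is not given in the sources used here) placed the 36-base reads on gene models, splice junctions and the genome. By the methods, positions were then expressed on mm9 and uniquely aligned reads retained, and the methods do not say which of 2 described alignments the files hold. In the deposited files a whole-number count stands on each alignment line. Each count was read as collapsed identical reads, a meaning inferred from the values, and the authors did not normalize it. The deposited catalog of imprinted genes was not used.

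Reads were counted over GENCODE vM1 exons (same build) where a block overlapped an exon, by strand, and scaled by the library total. Uniqueness of each 36-base position was found by a scan of the genome. The genes named include the 10 members highest per length, the highest of each class, the extremes of the past-stem-loop and cross ratios, those without reads or stem-loop, and those said to be chosen later. Further members of the classes were named outside these rules. The members, lists and tests were chosen with earlier results of these data known. No test was run, with 1 library per cross. Intervals are exact at 95% (Clopper-Pearson, or the conditional binomial for ratios), and a count of 0 allows 3 reads. PCR copies are not independent molecules. The marker Map2 was matched as Mtap2. The intervals were tested only on simulated reads that are independent of each other. In BxC 128944754 reads stood on 36575945 alignment lines, and that test does not cover reads stacked in this way. Python 3.11.15, numpy 2.4.6 and scipy 1.17.1 were used.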

Additional observations from a re-analysis of the deposited data

How the results depend on the processing

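No paired analysis was possible because each cross has 1 library, and no library could be left out. Of the alternatives, those on unique positions, on either strand for the ratios and past-stem-loop values, and on the window without its limit at another gene were chosen after seeing the data. The count of members with at least 100 sense reads in each library, 8, became 4 by distinct positions and 21 with a minimum of 20 reads. The share of sense reads on the 5 deepest members became 61.7% in both libraries by distinct positions, 83.4% in BxC and 81.8% in CxB by unique positions only, and 77.2% in CxB on either strand.

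The count of members past 0.1 beyond the stem-loop, 1 of 2 measured, became 3 of 15 with a minimum of 20 body reads, 2 of 4 on either strand, 2 of 3 with the window not limited by another gene, 3 of 5 with both, and 4 of 20 with both and the minimum of 20. The median ratio was 0.616 in BxC and 0.539 in CxB, 0.239 and 0.257 by distinct positions, 0.290 and 0.238 with a window of 500 bases, 0.981 and 1.03 with a body of 200 bases, and 0.0134 and 0.00684 without the correction for unique positions. It was 0.0434 and 0.00741 with a minimum of 20 body reads, 0.341 in CxB on either strand, 0.234 in BxC with the window not limited, 0.155 and 0.248 with both, and 0.0213 and 0.00583 with both and the minimum of 20. Medians that differed by over 1.5 times are listed, since 2 members give no interval for a median.

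Of the members at least 1.5-fold lower in CxB, 2 became 0 by distinct positions, 1 on either strand and 0 by unique positions only. At least 1.5-fold higher, 0 became 1 with a minimum of 20 reads. The median log2 ratio, -0.23, ranged from -0.25 to 0.03 over its alternatives, with the sign changed at a minimum of 20 reads and on either strand. Depth limits most members, since 45 of 70 had under 20 sense reads in BxC and could not be measured by sense reads past the stem-loop or between crosses.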
